A study of Mus musculus with 18 samples.

Results

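Sites of the cohesin subunit SMC1A were set against sites of CTCF in Satb1 KO double-positive (DP) thymocytes, the thymocyte stage that carries both CD4 and CD8. The sites come from 4 lists of CUT&RUN peaks, 2 of SMC1A and 2 of CTCF, paired by the replicate number, which the labels also give as the batch. On chromosomes 1 to 19 the 4 lists hold 124204 peaks, of 186631 peaks on all chromosomes in the 6 lists read here, and they merged into 58169 regions. All cells were sorted from thymus and all mice, WT controls included, had received tamoxifen, which induces the loss of Satb1 in the KO group. The sources used here name neither the driver of the recombinase nor the age of the mice, and do not say whether the replicates are separate animals. The spread between replicates may therefore be technical. A WT pair of batch 1, 1 SMC1A and 1 CTCF list, is given beside the KO values where it helps.

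CTCF is a zinc finger protein that binds a long directional DNA sequence. Cohesin is a ring-shaped complex, with SMC1A as one of its core subunits, that is loaded on chromatin and extrudes DNA into loops until it is halted, most often at CTCF. In DP thymocytes such loops bring distal V segments of the T cell receptor alpha locus near the J segments and connect enhancers with promoters. SATB1, the protein lost in the KO, folds chromatin and is abundant at this stage.

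Sites of both marks at gene starts are the setting in which sequence was at hand. The promoters below were chosen by rank from those that overlap a region with CTCF and SMC1A in both replicates and hold a word of the CTCF core sequence. Of the 6 that the rule picked, these are the 3 in which all 4 summits fall in the promoter window. The sequences are the 250 bases before the RefSeq start (GRCm38.p6, the assembly that mm10 represents), read 5′ to 3′ along the gene, and capitals mark the core word on either strand.
Ap2a1: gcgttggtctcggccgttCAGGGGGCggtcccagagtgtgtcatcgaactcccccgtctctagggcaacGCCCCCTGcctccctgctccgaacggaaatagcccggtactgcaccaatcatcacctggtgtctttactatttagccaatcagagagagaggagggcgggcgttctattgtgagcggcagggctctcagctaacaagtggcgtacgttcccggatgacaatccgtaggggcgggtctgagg
Add3: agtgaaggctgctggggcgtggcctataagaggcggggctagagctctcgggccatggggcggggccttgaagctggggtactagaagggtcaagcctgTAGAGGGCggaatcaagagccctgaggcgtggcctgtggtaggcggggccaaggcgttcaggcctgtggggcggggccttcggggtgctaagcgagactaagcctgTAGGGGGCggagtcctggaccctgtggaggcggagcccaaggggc
Cdk5rap3: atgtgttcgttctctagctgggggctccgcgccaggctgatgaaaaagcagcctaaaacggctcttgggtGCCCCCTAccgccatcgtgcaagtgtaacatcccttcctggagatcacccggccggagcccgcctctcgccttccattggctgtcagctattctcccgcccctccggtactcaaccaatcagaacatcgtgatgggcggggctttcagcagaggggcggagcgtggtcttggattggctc
The Ap2a1 bases lie at chr7:44929491-44929740 on the minus strand, ahead of a gene for a subunit of the AP-2 endocytic adaptor. Its first word is 232 bp before the start, and the CTCF summits lay 246 bp and 215 bp before the start in replicates 1 and 2, against 246 bp and 203 bp for SMC1A. The Add3 bases lie at chr19:53142506-53142755 on the plus strand, ahead of a gene for an adducin of the membrane skeleton. Its summits lay 205 bp and 194 bp before the start for CTCF and 250 bp and 203 bp for SMC1A. The Cdk5rap3 bases lie at chr11:96916515-96916764 on the minus strand, with the word 180 bp before the start. Its CTCF summits were 114 bp and 39 bp before the start, and its SMC1A summits 72 bp and 113 bp before it. In the promoters left out, the summits lay farther from the start than the words. Dnpep had its word 13 bp and its summits 657 to 810 bp before the start. Khsrp had 187 bp and 263 to 299 bp, and Gmfg words at 92 and 22 bp and summits at 933 to 977 bp. The choice shown thus favours words near summits, and binding at the words was not tested.

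The lists differ in length and in local background. The CTCF lists hold 54222 peaks in replicate 1 and 22351 in replicate 2, and the SMC1A lists 27459 and 20172. The local background was solved from the deposited scores for a sample of peaks of each list. Its lowest 1% mark stood at 1.82 and 3.28 reads for CTCF and 0.633 and 0.384 reads for SMC1A. These values depend on sequencing depth and on any scaling to a control, which cannot be told apart here. The shorter CTCF list had the higher value. The depth of the libraries is therefore unknown. CTCF replicate 1 alone accounts for 25451 of the merged regions. List length moves with the shares below, which are given for each replicate side by side.

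Most SMC1A peaks lay on CTCF, and many CTCF peaks had no SMC1A. In replicate 1, 93.8% of SMC1A peaks were overlapped by a CTCF peak by at least 1 bp (25747 of 27459, 95% Wilson interval 93.5 to 94.0%). In replicate 2 the share was 66.5% (13416 of 20172, interval 65.9 to 67.2%). Of the SMC1A peaks of replicate 2, 95.5% overlapped a CTCF peak of replicate 1. With every list shortened to its 20172 strongest peaks the shares were 80.5% and 63.2%, in the same order. Against the CTCF peaks of either replicate, the shares were 94.3% and 96.0%. Seen from CTCF, 44.3% of the peaks of replicate 1 had SMC1A (24008 of 54222, interval 43.9 to 44.7%), and 60.0% of those of replicate 2 (13419 of 22351, interval 59.4 to 60.7%). With lists of that equal length the order of the replicates turned, to 75.9% in replicate 1 and 63.0% in replicate 2. After the peaks were moved by 100 kb, overlap of CTCF with SMC1A fell to 3.12% and 1.85%, and that of SMC1A with CTCF to 6.26% and 2.13%. In the WT pair, 43.6% of CTCF peaks had SMC1A and 88.0% of SMC1A peaks had CTCF. Intervals cover counting error only.

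The share of CTCF peaks with SMC1A varied little between chromosomes. In replicate 1 it ran from 41.4% on chromosome 14 to 47.6% on chromosome 16. In replicate 2 it ran from 56.0% on chromosome 6 to 65.2% on chromosome 16.

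SMC1A was present at more of the strong CTCF peaks than of the weak ones. CTCF peaks were ordered by the −log10 q of the authors' peak caller, a score that ranks peaks only within a list, and divided into deciles. In the strongest decile, 99.0% of peaks in replicate 1 and 93.9% in replicate 2 had SMC1A. In the weakest decile the shares were 5.00% and 32.3%. The fall was steeper in the longer CTCF list of replicate 1, where the fifth decile stood at 44.0% against 61.8% in replicate 2. SMC1A peaks showed the same order in replicate 2, from 98.8% with CTCF in the strongest decile to 34.7% in the weakest. In replicate 1 they ranged from 99.6% down to 76.3%.

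**Figure D1:**
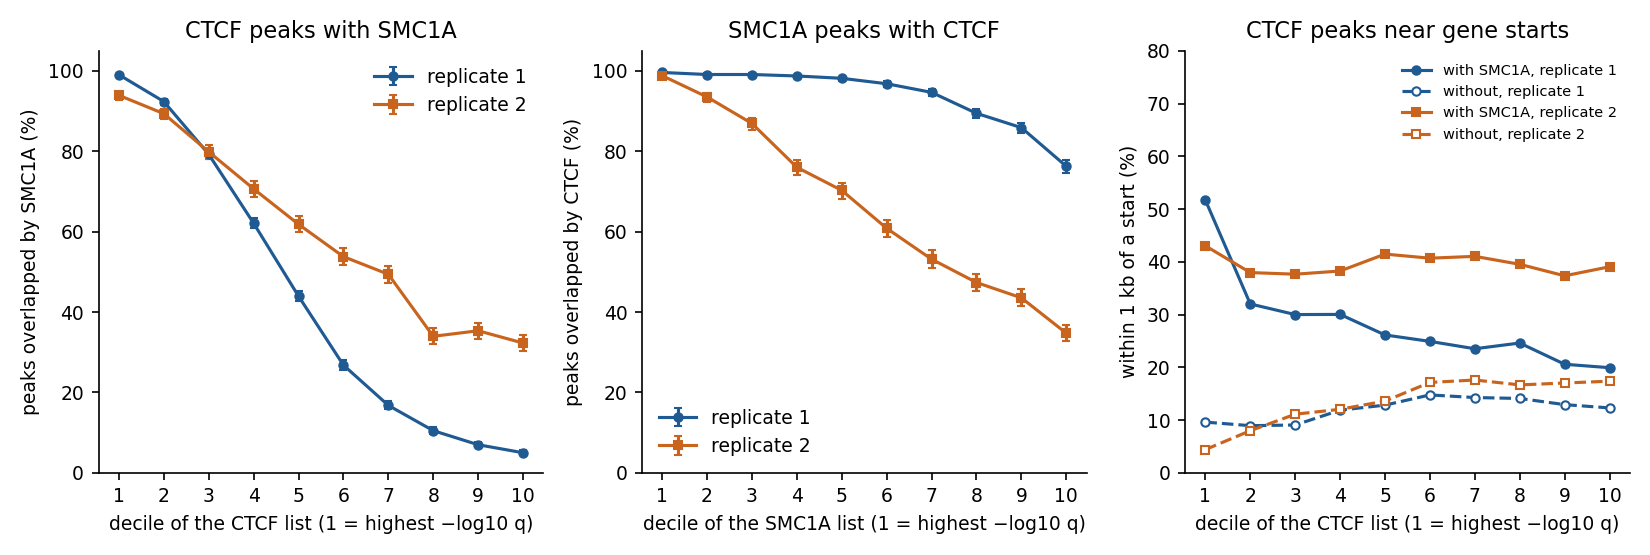
Left and centre, the share of peaks (%) overlapped by the other mark in deciles of a list ordered by −log10 q, with 95% Wilson intervals, for KO replicates 1 and 2. Right, the share of CTCF peaks within 1 kb of a gene start, with SMC1A (filled) and without (open). SMC1A overlap falls from 99.0% to 5.00% of CTCF peaks in replicate 1, and the filled points lie above the open points of the same replicate in every decile.

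The summits of both marks lay close together. Where a CTCF peak had SMC1A, the median distance to the nearest SMC1A summit of the same replicate was 52 bp in replicate 1 (quartiles 20 and 106 bp) and 79 bp in replicate 2 (quartiles 32 and 146 bp). Within 100 bp lay 73.2% and 59.5% of these peaks, and over 500 bp lay 1.53% and 1.97%. Along the chromosome, the median signed distance was 0 bp in both replicates. The distance grew as CTCF became weaker, from a median of 31 bp in the strongest decile to 114 bp in the weakest in replicate 1, and from 45 bp to 113 bp in replicate 2. In the WT pair the median was 63 bp, between both KO values.

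**Figure D2:**
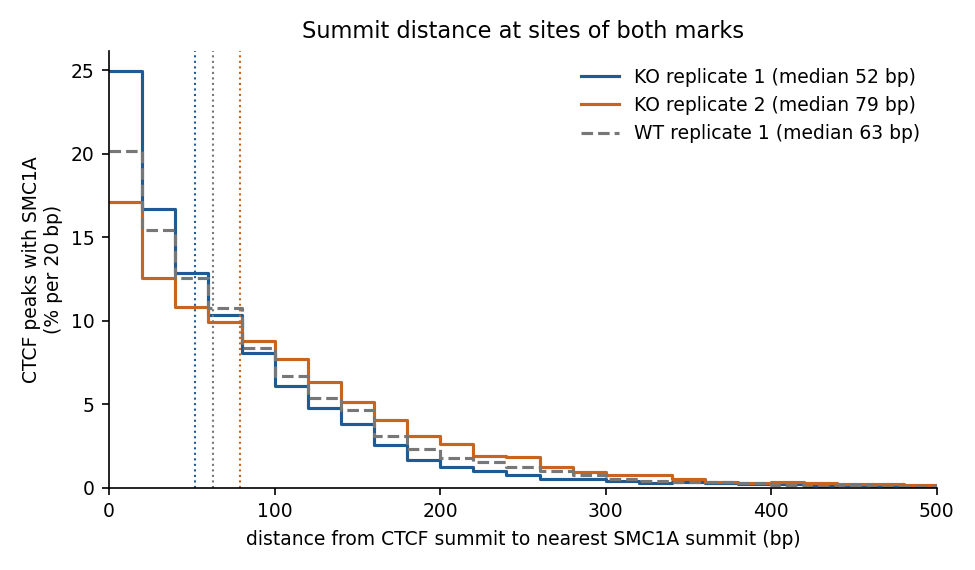
Share of CTCF peaks with SMC1A (%, in bins of 20 bp) by the distance in bp from the CTCF summit to the nearest SMC1A summit of the same replicate; solid lines are KO replicates 1 and 2, the dashed line is WT replicate 1, and dotted lines mark medians of 52, 79 and 63 bp. All 3 curves are highest in the bin next to 0.

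Merging the 4 lists gave 12272 regions with both marks in both replicates (21.1% of 58169). CTCF in both replicates with SMC1A in neither was found at 3032 regions (5.21%), and SMC1A in both with CTCF in neither at 134 (0.230%). The other 42731 regions held another pattern and belong to no class. Of the 18450 regions in both CTCF lists, 66.5% had SMC1A in both replicates, 14.2% in replicate 1 only, 2.86% in replicate 2 only and 16.4% in neither. Of the 16433 regions in both SMC1A lists, 0.815% had no CTCF peak in either replicate.

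The classes also differed in peak strength. The authors' fold enrichment at CTCF summits had a median of 18.6 in replicate 1 and 4.91 in replicate 2 for regions of both marks, against 7.62 and 3.76 for CTCF alone. At SMC1A summits the medians were 10.2 and 8.10 for both marks and 5.97 and 5.63 for SMC1A alone. The WT CTCF list held 97.0% of the regions of both marks, 75% of the CTCF-only regions and 18.7% of the SMC1A-only regions. The WT SMC1A list held 86.4%, 9.70% and 64.2% of the 3 classes.

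Sites of both marks were near gene starts more often than sites of CTCF alone. Of the regions of both marks, 40.5% lay within 1 kb of the start of a protein-coding gene (4966 of 12272), against 9.40% of CTCF-only regions (285 of 3032) and 7.46% of SMC1A-only regions (10 of 134). For genes with no listed start, either end of the gene was used. Counted replicate by replicate, the shares were 33.9% and 39.7% for CTCF peaks with SMC1A and 13.2% and 15.7% for those without, and the groups did not overlap. The means were 36.8 ± 4.08% and 14.4 ± 1.78% (SD, n = 2), a difference of 22.4 percentage points. The exact two-sided permutation test gave p = 0.333, the smallest that 2 against 2 allows, and 0.5 after Benjamini-Hochberg adjustment over 9 comparisons of places.

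This difference was present at every level of CTCF strength. In the strongest decile of CTCF peaks, 51.7% of those with SMC1A in replicate 1 were near a start, against 9.62% of the 52 without. In replicate 2 the values were 43.0% and 4.41% of 136. In the weakest decile they were 19.9% and 12.3% in replicate 1 and 39.1% and 17.4% in replicate 2.

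SMC1A peaks without CTCF were less alike between replicates. Near a start lay 10.9% of them in replicate 1 (187 of 1712) and 31.8% in replicate 2 (2146 of 6756). Of the 6756 in replicate 2, 5952 overlapped a CTCF peak of replicate 1, and 34.8% of these were near a start. The 804 with CTCF in neither replicate were near a start in 9.33% of cases, close to the 11.2% of the 1567 such peaks of replicate 1.

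The other places were counted over all sites of a class, those near starts included. Inside a gene body lay 51.7% and 49.3% of CTCF peaks with SMC1A in the 2 replicates, 57.9% and 53.9% of those without, and 57.6% and 58.6% of SMC1A peaks without CTCF. Over 100 kb from any protein-coding gene lay 3.28% and 2.51% of CTCF peaks with SMC1A, 4.82% and 5.15% of those without, and 8.82% and 4.40% of SMC1A peaks without CTCF. Of the 134 SMC1A-only regions, 15.7% were that far from a gene, against 2.39% of regions of both marks and 5.67% of CTCF-only regions.

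**Figure D3:**
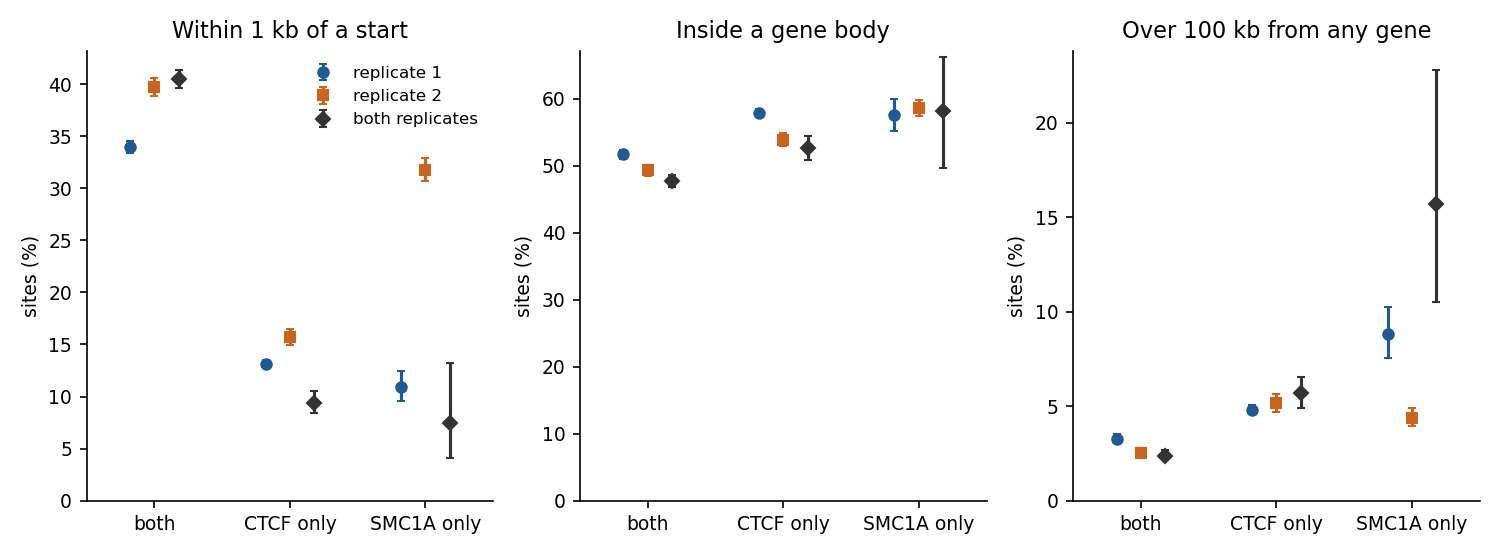
Share of sites (%) within 1 kb of a gene start, inside a gene body and over 100 kb from any protein-coding gene, by class; circles and squares are peaks of replicates 1 and 2, diamonds are regions whose class holds in both replicates, and bars are 95% Wilson intervals. Sites of both marks are near a start in 33.9% to 40.5% of cases, CTCF-only sites in 9.40% to 15.7%.

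Ranked by their weakest −log10 q over the 4 lists, the 8 leading regions of both marks lay within 1 kb of no listed start. Examples are chr12:97061291-97061942, with no gene within 100 kb, and chr1:195241416-195242036, whose summit is 64838 bp from Cr2, the gene of a complement receptor. Distances from genes are those of the strongest CTCF summit of a region. The first of them, chr14:19415595-19416053, had a CTCF fold of only 1.76 and 1.84 and an SMC1A fold of 1.91 and 2.03, with summits 3 bp and 0 bp apart. All 8 were in both WT lists. No filter for repeated or high-background regions was applied here, and whether any of the 8 are such regions was not tested. A top rank by −log10 q is therefore not a measure of specific binding.

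Among regions of both marks at gene starts, those ranked highest were picked after their values were seen. At chr9:106476022-106477897, between the starts of Parp3, which codes for an ADP-ribosyltransferase, and Rrp9, the CTCF fold was 154 and 25.8 and the SMC1A fold 83.8 and 55.8. Their summits were 8 bp and 0 bp apart. At chr2:152829740-152832706, at the start of Bcl2l1, the fold was 81.1 and 18.2 for CTCF and 94.5 and 78.5 for SMC1A. Bcl2l1 codes for BCL-XL, which keeps DP thymocytes alive. At chr14:21499880-21501692, in Kat6b, the gene of a histone acetyltransferase, the fold was 95.9 and 19.1 for CTCF and 62.5 and 46.3 for SMC1A. Khsrp, which codes for an RNA-binding splicing regulator, had such a region at chr17:57031339-57032619, with a CTCF fold of 130 and 20.0 and an SMC1A fold of 80.3 and 51.6. In each of these the CTCF fold was higher in replicate 1, and both marks were present in both replicates.

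The 8 CTCF-only regions that led by rank lay mostly outside genes. Across the whole class, 52.6% (1596 of 3032) lay inside a gene body, against 47.7% of regions of both marks. The region at chr12:107364263-107364623 had a CTCF fold of 27.9 and 9.04 and no protein-coding gene within 100 kb. A region 7034 bp from Gins2, which codes for a replication helicase subunit, at chr8:120595810-120596532, had 24.96 and 8.00. A region 3191 bp from Tenm4, the gene of a teneurin, at chr7:96913814-96914634, had 28.1 and 7.19. Of CTCF-only regions at gene starts, also picked after their values were seen, the first 3 by their weaker −log10 q rank were at Dop1a (fold 34.7 and 7.51), Rab12, the gene of a small GTPase (26.4 and 7.30), and Kcna7, the gene of a potassium channel (15.9 and 5.20). All 3 were in the WT CTCF list, and only that of Rab12 also in the WT SMC1A list.

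SMC1A-only regions led by rank included a strong one inside Yap1, the gene of a Hippo pathway coactivator. At chr9:7973710-7974067 the SMC1A fold was 49.2 and 28.0, far above the class medians of 5.97 and 5.63. Others lay in Tmtc1, which codes for a protein mannosyltransferase (9.94 and 11.3), and in Wnt5b, which codes for a Wnt ligand (8.67 and 9.53). All 8 leading SMC1A-only regions were in the WT SMC1A list, and 1 of them, at chr2:166441738-166442070, also in the WT CTCF list. Across the class, the median distance to the nearest CTCF summit of a KO list was 9640 bp, with 18 regions within 1 kb and 66 over 10 kb. The 134 regions were spread over all 19 chromosomes, and 10 lay within 100 kb of another.

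For gene lists, regions within 20 kb of a gene body were counted, and the share of regions in both CTCF lists that also had SMC1A in both replicates is given. Over all protein-coding genes it was 68.0% of 16054 regions. At 25 genes for the T cell receptor, recombination, coreceptors and signalling it was 93.5% (58 of 62, interval 84.6 to 97.5%). At 25 T-lineage transcription factors it was 88.8% (71 of 80, interval 79.98 to 93.97%). The median CTCF fold of these regions in replicates 1 and 2 was 15.5 and 4.25 at the first list and 15.1 and 4.02 at the second, against 15.0 and 4.44 at all genes. Within 1 kb of a start lay 22.6% of the regions of the first list and 26.3% of the second, against 36.2% at all genes. The part of strength and place in the shares was not tested. With regions taken up to 100 kb away the shares were 84.7% and 71.9%, against 67.1% at all genes. At that distance the other lists ran from 64.3% (insulator-rich clusters) to 81.1% (survival and death genes). Housekeeping genes stood at 78.2%, above the T-lineage factors. No test was made of these lists, which were chosen with earlier results of these data known.

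The other lists held fewer regions. Survival and death genes stood at 85.3% (29 of 34, interval 69.9 to 93.6%), regulatory T cell genes at 78.6% (11 of 14), cohesin, CTCF and architecture genes at 76.0% (38 of 50), and cytokine, receptor and egress genes at 75% (12 of 16). Housekeeping genes stood at 73.5% (25 of 34) and insulator-rich clusters at 73.3% (11 of 15). For markers of other cell types the thymus holds, the counts were 9 of 10 at erythroid, 9 of 13 at B cell, 9 of 17 at thymic epithelial and 2 of 4 at myeloid genes. Peaks at a marker are no measure of its expression, so these counts do not test the purity of the sort.

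**Figure D4:**
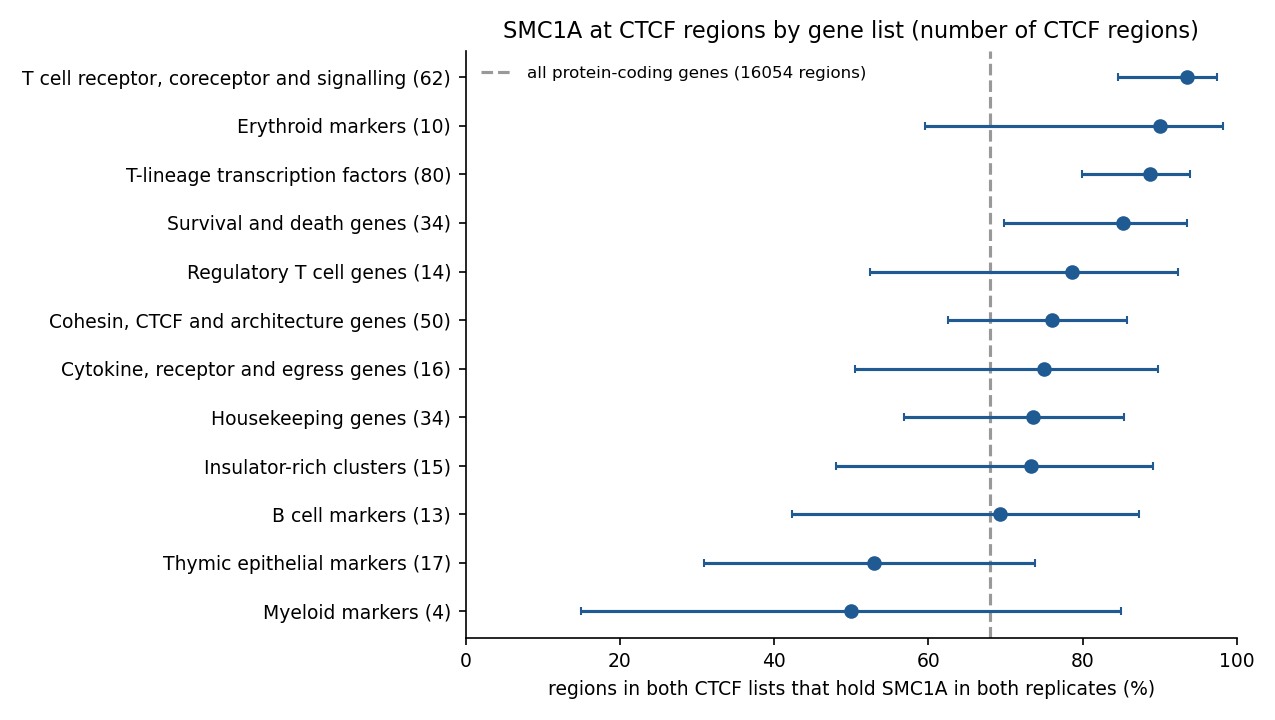
Share (%) of regions in both KO CTCF lists that hold SMC1A in both replicates, within 20 kb of the genes of each list, with 95% Wilson intervals and the number of CTCF regions in brackets; the dashed line is the value of all protein-coding genes, 68.0%. The intervals of T cell receptor and signalling genes, of T-lineage transcription factors and of survival and death genes lie to the right of the line. Erythroid markers stand at 90% of 10 regions, with an interval that crosses the line. Intervals cover counting error only, and the lists, chosen with earlier results of these data known, were not tested.

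Genes of the lists differed in how many regions of both marks they carried. Cd247, which codes for the zeta chain of the T cell receptor complex, had 8 among 30 regions. Bcl11b, a factor for T cell commitment, had 6 among 19. Lmna, the lamin A/C gene, had 7 among 15. At all protein-coding genes, 10914 of 49698 regions held both marks, 2476 were CTCF only and 102 SMC1A only. Genes with more regions can carry more of any class, and no gene was tested against these numbers. CTCF-only regions were single ones, at Tcf3 among the T-lineage factors, at Lck, Cd247 and Cd6 among the receptor and signalling genes, and at Igf2 among the insulator-rich clusters. An SMC1A-only region lay within 20 kb of Ikzf3 and of Foxp1, both T-lineage factors, and of Aire, the thymic epithelial regulator.

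At the T cell receptor alpha constant gene Trac, 3 of 8 regions within 20 kb held both marks. The strongest, at chr14:54226608-54228839 between Trac and Dad1, had a CTCF fold of 48.5 and 13.8 and an SMC1A fold of 39.3 and 29.1, with summits 72 bp and 29 bp apart. It ranked within the top 0.912% of every list. Its neighbours at chr14:54232906-54234449 and chr14:54238868-54239660 had a CTCF fold of 21.6 and 2.76 and of 13.7 and 3.84, and the first of them lost its class at −log10 q of 5 or more.

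At the recombinase gene Rag1, 1 of 9 regions held both marks, at chr2:101652194-101653321, with its strongest CTCF summit 3543 bp from the start. The CTCF fold was 19.9 and 5.08 and the SMC1A fold 7.70 and 5.72. The region over the Rag1 start itself, chr2:101649285-101649915, had both SMC1A peaks (7.04 and 4.52) but CTCF in replicate 1 alone (5.80). Of regions with their summit within 20 kb of Rag2, the other recombinase gene, none held both marks in both replicates. The region of both marks counted for Rag1 has its summit just past that limit and its near edge inside it. The absence at Rag2 therefore rests on the limit used. Of the 8 regions counted for Rag2, all were in CTCF replicate 1 and 0 in the shorter list of CTCF replicate 2.

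Of the coreceptor genes, Cd8a had 1 region of both marks among 12, at chr6:71369211-71370301, with its strongest CTCF summit 3846 bp from the gene. There the SMC1A fold was 16.3 and 12.3, against medians of 6.70 and 6.60 over the whole lists. The CTCF fold was 13.3 and 3.21, against medians of 5.93 and 4.21. Cd4 had 3 among 10, 1 of them at chr6:124862873-124864928, which overlaps an end of the gene, with an SMC1A fold of 11.6 and 11.3. The repressor gene Bcl6 had 2 among 8, with an SMC1A fold of 16.6 and 14.5 at chr16:23981725-23988025. Il2ra, a cytokine receptor gene, had 4 among 17, and Il7r, the gene of the IL-7 receptor, had 1 among 7. Ets1, the gene of an ETS family activator, had 5 among 29, the strongest at chr9:32740343-32741905 with a fold of 38.9 and 7.38 for CTCF and 32.1 and 19.2 for SMC1A. Ctcf itself had 4 among 14 and 1 CTCF-only region. At −log10 q of 5 or more, 3 of the 5 at Ets1, 1 of the 4 at Il2ra, 1 of the 4 at Ctcf and its CTCF-only region lost their class.

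Satb1, the deleted gene, had 3 regions of both marks among 28, 1 of them over its start at chr17:51830824-51833975. There the CTCF fold was 8.33 and 1.98 and the SMC1A fold 10.6 and 8.31, with summits 37 bp and 700 bp apart. None of the 3 kept the class at −log10 q of 5 or more, and 1 of 3 kept it with lists of equal length or with summits within 200 bp. The sources used here do not say which part of Satb1 the KO removes, so these peaks do not check the deletion. Smc1a is not on chromosomes 1 to 19.

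CTCF core words were counted in promoter windows, from 250 bases before to 50 after each RefSeq start. The 8 words have C or T first, then AG, then G or A, then G or T, then GGC, on either strand. Of 5481 windows that overlap a region of both marks, 18.3% held a word (1004, interval 17.3 to 19.4%). For CTCF-only regions the share was 20.2% (22 of 109, interval 13.7 to 28.7%), and 1 of 4 windows at SMC1A-only regions held one. Windows with no KO region held one in 10.4% of cases, and all 20063 windows in 13.2%. The shares of both marks and of CTCF alone thus had overlapping intervals.

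Summit distances from these words were taken within a limit of 200 bp, which bounds the medians of both marks. The level that unrelated positions would give was not measured. In replicate 2, 6.05% of CTCF summits lay in the 20 bp before the word, against 7.37% at 100 to 120 bp before it. Where a window of both marks held a single word and both summits lay within 200 bp of it, the median distance from the word was 60.5 bp for CTCF and 75.5 bp for SMC1A in replicate 1 (n = 589), and 88.5 bp and 72.5 bp in replicate 2 (n = 529). Along the direction of the word, the SMC1A summit lay past the CTCF summit in 54.5% of cases in replicate 1 (interval 50.5 to 58.5%) and 51.0% in replicate 2 (interval 46.8 to 55.3%). These shares count cases with both summits at the same base in the total. In replicate 1 the SMC1A summit lay past in 321, before in 243 and level in 25. In replicate 2 the numbers were 270, 250 and 9. The interval of replicate 2 includes an even split.

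Peak density was compared between the marks in 1 Mb windows, as log2 of the peaks plus 0.5, relative to all peaks of the list. With limma and no block, 0 of 1457 windows (0%) differed at an adjusted p under 0.05, 148 (10.2%) at an unadjusted p under 0.05. The replicate numbers are the batches in the labels, and with the replicate as a block limma called 15 windows (1.03%), 8 with more SMC1A (0.549%) and 7 with less (0.480%). In all 15 the difference had the same sign in both replicates. The blocked fit favours windows whose differences agree between replicates, so the shared sign adds no support. These windows were named after the blocked values were seen. Each is named by genes or segments picked from those it overlaps. The genes given and counted for a window may lie in it only in part. A count per window does not place the difference at any of them.

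The lowest adjusted p belonged to the window at chr12:107000001-108000000, which holds most of Bcl11b. The gene, at chr12:107910403-108004145, runs past the end of the window. It had 36 and 7 CTCF peaks and 38 and 21 SMC1A peaks in replicates 1 and 2. The log2 density of SMC1A minus CTCF was 1.36 ± 0.21 (SE), with limma's adjusted p = 0.0042 in the blocked fit and 0.11 without the block. Other windows with more SMC1A held Sox4, a T cell factor gene (0.86 ± 0.20, limma's blocked adjusted p = 0.044) and Zfp36l2, which codes for an RNA decay factor (0.87 ± 0.19, adjusted p = 0.025). The window of Bach1, a repressor gene, had 1.09 ± 0.22 (limma's adjusted p = 0.021). Klf3, the gene of a zinc finger repressor, lay in another (1.05 ± 0.21, limma's adjusted p = 0.021). The windows of Zfp36l2, Bach1 and Klf3 each held 8 protein-coding genes, that of Sox4 held 3 and that of Bcl11b held 2.

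Some windows with less SMC1A held antigen receptor V segments, which are counted here with their pseudogenes. How many of all 1457 windows tested hold V segments was not counted, so no excess can be read from these. The window at chr14:52000001-53000000, with 39 V segments of the T cell receptor alpha locus, had 90 and 34 CTCF peaks and 26 and 15 SMC1A peaks (log2 −0.90 ± 0.18, limma's blocked adjusted p = 0.021). It also held 20 protein-coding genes. The window at chr12:114000001-115000000, with 88 V segments of the immunoglobulin heavy chain locus, had 38 and 11 CTCF peaks and 9 and 4 SMC1A peaks (−1.12 ± 0.26, limma's adjusted p = 0.043). The window of Ttn, a muscle gene, had 18 and 7 CTCF peaks and 2 and 1 SMC1A peaks (−2.04 ± 0.37, limma's adjusted p = 0.015). That of Ank3, the gene of ankyrin G, had 16 and 3 against 2 and 0 (−2.20 ± 0.44, limma's adjusted p = 0.021). The windows of Ttn and Ank3 held 9 and 4 protein-coding genes. Without CTCF replicate 1, limma with no block called 66 windows with more SMC1A and 25 with less, and without any other list it called 0.

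**Figure D5:**
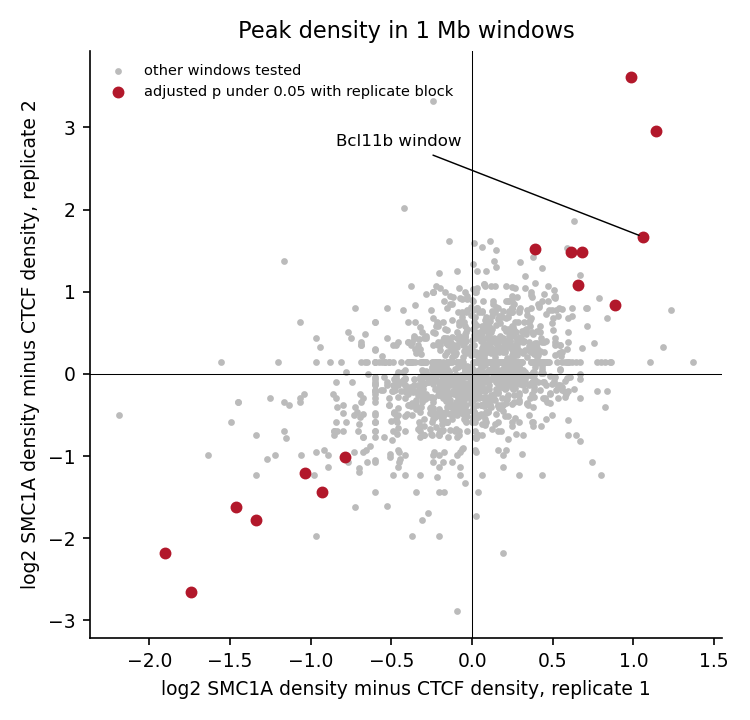
Log2 SMC1A peak density minus CTCF peak density in 1457 windows of 1 Mb, replicate 1 on the x axis and replicate 2 on the y axis; red points are the 15 windows with limma's adjusted p under 0.05 in the fit with the replicate block. All red points lie in the upper right or lower left, a pattern that selection by the blocked fit favours. The fit without the block calls 0 windows.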

How the data were processed

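CUT&RUN libraries of SMC1A and CTCF came from DP thymocytes. Per the submitters' processing notes, the tools were Trimmomatic 1.24, Bowtie2, SAMtools, deepTools, MACS2 and R 4.12, with mm10. The sources used here give neither their settings nor the control. The authors deposited 1 narrowPeak list per library, with a fold enrichment (ratio) at each summit, a −log10 p and a −log10 q. Names of SMC1A peaks carry a suffix that CTCF names lack, so calling may have differed between the marks. The lists hold no read numbers.

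Of 18 samples, 6 lists were read. Fits used limma 3.58.1 in R 4.3.3, and all else Python 3.11.15 with pandas 2.3.3, scipy 1.17.1 and numpy 2.4.6. Peaks overlapping by 1 bp or more were joined. Genes and promoters came from RefSeq tables of GRCm38.p6, in which 16457 of 20665 protein-coding genes had a listed start. Exons and introns are not stated. Windows needed a mean of 5 or more peaks. Same-numbered lists deviated together across 1457 windows (correlation 0.229, 2 pairs).

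Named regions were the 8 per class with the best weakest rank, up to 3 genes per list and class and 12 set genes, and promoters were chosen by rank. Regions at gene starts and blocked windows were chosen after seeing values. Some named items are not reported here. Members and lists were chosen with earlier results of these data known. Steps were tested on simulated data. Alternatives covered stricter q, equal lengths, summit distance, overlap, gene distance, window settings, the replicate block and each replicate left out.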

Additional observations from a re-analysis of the deposited data

Results flagged for a closer look

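The sex chromosomes lie outside the comparisons above and also carried CTCF peaks with SMC1A. On chromosome X the share was 38.5% of 1471 CTCF peaks in replicate 1 and 52.8% of 527 in replicate 2. On chromosome Y it was 22.8% of 57 in replicate 1 and 36% of 50 in replicate 2. On chromosomes 1 to 19 the shares were 44.3% and 60.0%, above those of X and Y in both replicates. Moved by 100 kb, the CTCF peaks of chromosomes 1 to 19 met SMC1A in 3.12% and 1.85% of cases. The difference between the sex chromosomes and the others was not tested.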

How the results depend on the processing

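Class sizes and shares moved with list length, q and the replicate used, and depth is unknown. With lists of equal length the mean share of CTCF peaks with SMC1A was 69.5% in place of 52.2%, the CTCF-only class fell to 1761 regions, the SMC1A-only class rose to 1132, and the share at all protein-coding genes was 74.5%. At −log10 q of 5 or more the classes held 8084 regions of both marks and 89 of SMC1A only. Against peaks of the other mark from either replicate, the mean of the median summit distances was 45.5 bp in place of 65.5 bp. With 1 replicate left out, regions of both marks numbered 13153 to 23847, CTCF only 8932 to 30214 and SMC1A only 1712 to 6756. The share at all genes was 64.5% for gene bodies alone and 67.1% within 100 kb. With 4 words the promoter shares were 11.3% for both marks, 11.9% for CTCF only and 0% for SMC1A only. The difference in near-start shares between both marks and CTCF only stayed positive under all alternatives run, from 14.2 to 24.8 points, also with listed starts only (19.4 points), a setting chosen after seeing the data.

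Windows with more and with less SMC1A numbered 8 and 7 with the replicate block, 7 and 4 at a mean of 10 or more, 5 and 3 with no filter, and 3 and 4 with each list's median set to 0. With 1 list left out they ranged from 0 to 66 and from 0 to 25. In those fits the lone list of a mark is assumed to vary like the other mark. The causes were not tested.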
